A study of Apostichopus japonicus with 12 samples.

Results

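Compact H3K9ac sites that carried a peak in both heat-stressed and control intestine of the sea cucumber Apostichopus japonicus numbered 826, out of 24534 regions found in any library (3.37%). They were chosen by their own peak calls. The peaks of 6 lists were pooled and joined into 1 region wherever they overlapped by 1 bp or more, and a region was selected where it was narrower than 2500 bp and at least 2 of 3 heat and at least 2 of 3 control libraries had a peak in it. Presence in both groups and the width limit were therefore set by the selection and are given as a description, with no test. Without the width limit 950 regions met the presence rule (3.87%), and the other 124 were at or over 2500 bp. "Kept" says only that a peak was listed in both groups, and not that its height was the same. ChIP-seq with an antibody against histone H3 acetylated at lysine 9 (H3K9ac) was done in 2 groups of 3 libraries. For the heat-stress group the water was brought from 18 to 26 °C by 2 °C each hour and kept at 26 °C, and the intestine was taken at 48 h. The control group is labelled as not treated and was sampled at the same time, and its temperature was not given in the sources used here. Chromatin had been sheared to about 200–500 bp, 2% of it was kept as input, reads were paired with 150 bases each, and the authors called each immunoprecipitate against its own input.

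Acetylation of lysine 9 on the tail of histone H3 neutralises a positive charge that otherwise helps the tail hold DNA, and it is laid down by acetyltransferases that work with the transcription machinery. In animals studied so far the mark is known from the promoters and starts of genes in use, where it usually forms short to medium blocks of a few nucleosomes. Apostichopus japonicus is known to aestivate in warm water, when it stops feeding and its gut shrinks. The build behind the files was not given in the sources used here, so regions are named by the scaffold names of the files with positions counted from 1, and the genes, introns, exons and base sequences at these regions were not analysed here. For the same reason the labelled tissue was not checked against marker genes. Intestine was taken whole, so fewer cells with the mark and less of the mark per cell cannot be told apart.

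The lists were of very unequal length and depth. They held 1180, 929 and 17932 peaks in heat replicates 1, 2 and 3, against 5614, 1828 and 16518 in control replicates 1, 2 and 3. Genome background, the lowest mean coverage the peak caller assumed, was 1.39, 1.203 and 1.83 fragments per position in heat replicates 1, 2 and 3, against 0.730, 0.758 and 1.69 in control replicates 1, 2 and 3. The median listed peak rested on 15, 14 and 22 fragments in the heat libraries and on 13, 12 and 18 in the controls. Replicate 3 of each group stood apart from the rest by its long list, and the comparisons of width, rank, summits and spacing are also given without them. Whether each sample came from its own animal is not stated in the labels, so every p below measures the spread among these 6 samples alone, and that spread may be technical. With 3 libraries against 3, no test between groups could give a p below 0.1.

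Both of the long lists reached nearly all of the compact sites, and the short lists decided how many libraries a site had. Peaks were present at 560, 456 and 820 of the 826 sites in heat replicates 1, 2 and 3, against 766, 418 and 821 in control replicates 1, 2 and 3. As shares these were 67.8% (Wilson 95% interval 64.5–70.9%), 55.2% (51.8–58.6%) and 99.3% (98.4–99.7%) in the heat libraries, against 92.7% (90.8–94.3%), 50.6% (47.2–54.0%) and 99.4% (98.6–99.7%) in the controls, with intervals that cover counting error only. Over all 24534 regions the shares with a peak were 4.32%, 3.4% and 70.7% in heat replicates 1, 2 and 3, against 20.4%, 6.88% and 63.3% in control replicates 1, 2 and 3. The selection used these same calls, so nothing is read from the gap between the sets of shares. On average 612 ± 187 sites had a peak in a heat library and 668 ± 219 in a control library (SD, n = 3 each). The difference of -56.3 sites was smaller than the SD of either group, and it was given no test because presence chose the sites. With every list cut to its 929 peaks of highest −log10 q the groups differed by 0.667 sites.

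**Figure D1:**
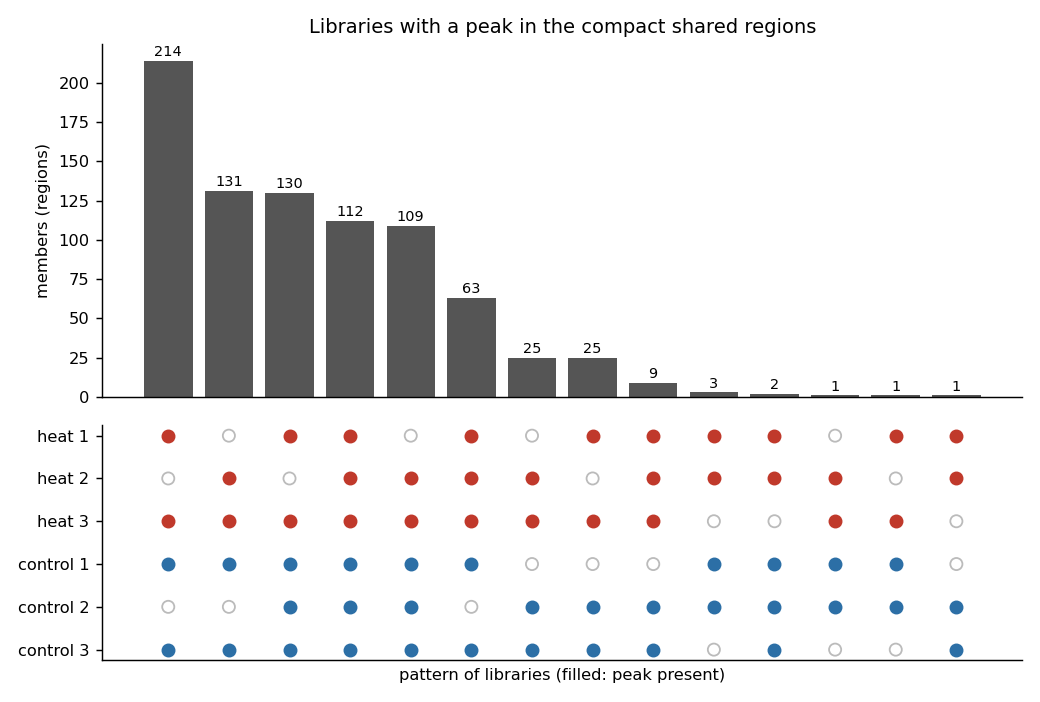
Number of compact shared sites (bars, linear axis) for each pattern of libraries with a peak (filled circles: present; heat in red above control in blue). The most frequent pattern, at 214 sites, lacked heat replicate 2 and control replicate 2, and 112 sites had a peak in all 6 libraries.

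Only 112 of the 826 sites (13.6%) had a peak in all 6 libraries. Another 313 (37.9%) had 5 libraries and 401 (48.5%) had the minimum of 4. By group, 401 sites had 2 heat and 2 control libraries, 241 had 2 heat and 3 control libraries, 72 had 3 heat and 2 control libraries, and 112 had 3 of each. The pattern with every library but heat replicate 2 and control replicate 2 was the most frequent, at 214 sites. Presence in both replicate 3 libraries held at 818 sites. Just outside the presence rule lay 3395 regions of under 2500 bp with at least 2 libraries of one group and 1 of the other, about 4 for each site inside it. Regions of that width with a peak in both replicate 3 libraries alone numbered 4957.

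Most of the sites were several nucleosomes wide, and their outline came mostly from the long lists. Their width ran from 183 to 2472 bp with a median of 1161 bp and quartiles of 793 and 1605 bp. The median was 844 bp for the regions just outside the presence rule, 515 bp for those of both replicate 3 lists alone, and 321 bp over all regions. Width also went with the number of libraries: the median was 988 bp at sites with 4 libraries, 1273 bp with 5 and 1461 bp with 6. Each further library can only widen a merged region, so this order follows in part from how regions are built. In 795 sites (96.2%) the widest peak belonged to one of the replicate 3 libraries, 496 times to heat and 299 times to control. At 341 sites a single peak spanned the whole region, and 220 of those peaks came from heat replicate 3 and 114 from control replicate 3. All sites together covered 1006 kb, out of 12268 kb covered by all regions.

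The narrowest site, on MRZV01000927.1 at 20292–20474, was 183 bp wide with peaks in heat replicates 2 and 3 and control replicates 2 and 3. It was followed by MRZV01000163.1 at 231913–232130 with 218 bp and MRZV01000404.1 at 139888–140124 with 237 bp. At the other end, MRZV01000214.1 at 454500–456971 measured 2472 bp, MRZV01000330.1 at 566263–568723 measured 2461 bp and MRZV01000453.1 at 499651–502105 measured 2455 bp, each with 5 libraries. Just past the limit lay 2 shared regions of 2506 bp, on MRZV01000005.1 at 1007221–1009726 and on MRZV01000201.1 at 459885–462390, and 1 of 2512 bp on MRZV01000399.1 at 105279–107790, also with 5 libraries each. The limit thus runs through a continuous range of widths, and these named regions on its sides had like numbers of libraries. In larger sets the numbers differed. All 6 libraries had a peak at 23 of the 97 sites of 2000 bp or more, against 62 of the 124 shared regions at or over the limit.

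Within these sites the peaks themselves were narrow in 4 libraries and wide in the replicate 3 libraries. In heat replicates 1, 2 and 3 the highest-fold peak at a site had a median width of 228.5, 230 and 980 bp, against 376, 279.5 and 866 bp in control replicates 1, 2 and 3. All peaks of a library at a site together covered a median of 23.9%, 22.6% and 94.9% of the region in the heat libraries, against 44.4%, 27.4% and 87.0% in the controls. A site was thus a wide block in the deep lists with a short listed core in the others. Over the whole lists of heat replicates 1, 2 and 3 the median widths were 220.5, 223 and 341 bp, against 273, 228 and 315 bp over those of the controls. The group means of 479.5 ± 433 bp in heat and 507 ± 314 bp in control (SD, n = 3 each) differed by -27.7 bp, less than the SD of either group (exact permutation test, two-sided, p = 0.8). That difference turned to 107 bp without heat replicate 1, 109 bp without heat replicate 2 and 201 bp without control replicate 3, and it was -417 bp without heat replicate 3, -75.8 bp without control replicate 1 and -139 bp without control replicate 2. Without both replicate 3 libraries, 170 regions under 2500 bp had a peak in all 4 of the others, and 107 of them (62.9%) overlapped one of the 826 sites. At these 170 regions heat replicates 1 and 2 had median widths of 342.5 and 311 bp, against 632 and 356.5 bp for control replicates 1 and 2.

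**Figure D2:**
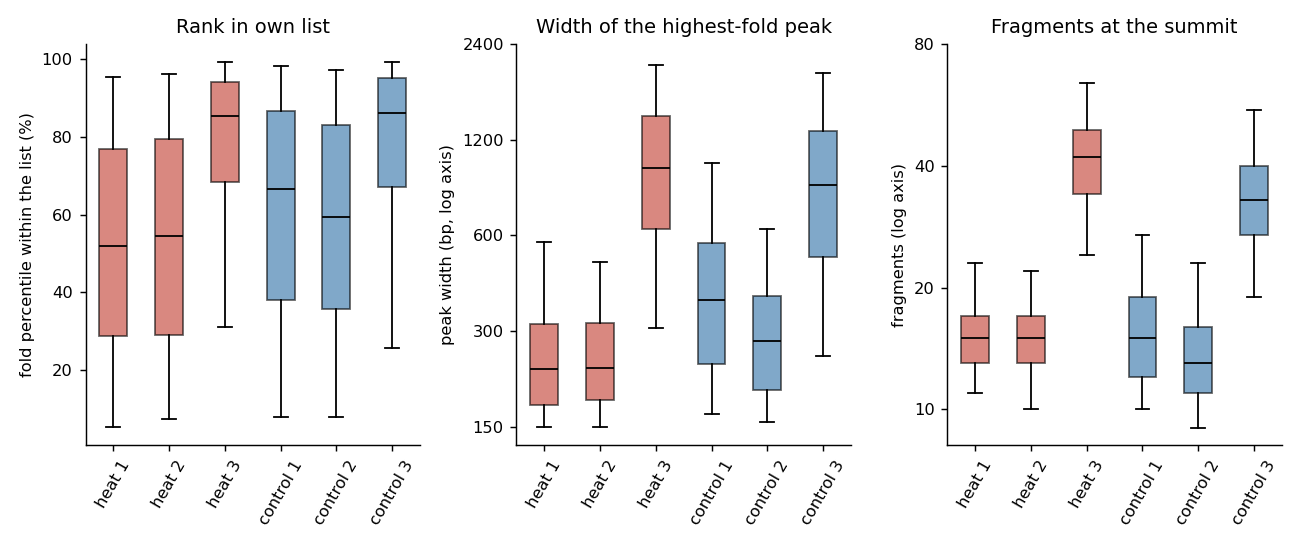
For each library (heat in red left of control in blue), boxes give the median and quartiles over sites with a peak, and whiskers the 5th to 95th percentile, of the fold percentile in the library's own list (%), the peak width (bp, log axis) and the fragments at the summit (log axis). Replicate 3 of either group stood above the other libraries in all 3 panels, with median widths of 980 bp in heat and 866 bp in control.

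Peak strength was measured as the authors' fold, the ratio of fragments to local background at the summit, and was ranked inside each list, since a fold depends on the depth of its library. The percentile of a peak is its place by fold in its own list, from the weakest near 0 to the strongest near 100. The median fold at the sites was 4.30, 4.43 and 7.66 in heat replicates 1, 2 and 3, against 5.82, 5.33 and 6.88 in control replicates 1, 2 and 3. Over the whole lists it was 4.23, 4.37 and 4.94 in the heat libraries, against 5.16, 5.04 and 4.46 in the controls. The median at the sites was thus close to that of the whole list in heat replicates 1 and 2, and well above it in the replicate 3 libraries. But peaks at the sites made up 52.0% and 53.4% of the lists of heat replicates 1 and 2. In heat replicate 3 and control replicate 3 they made up 4.95% and 5.69%. A set that fills much of a list has a median near that of the list. The value at a site is also that of its highest-fold peak, so nothing is read from this contrast. The median percentile was 51.8, 54.3 and 85.3 in heat replicates 1, 2 and 3, against 66.5, 59.4 and 86.2 in control replicates 1, 2 and 3. It averaged 63.8 ± 18.6 in heat and 70.7 ± 13.9 in control (SD, n = 3 each), a difference of -6.89 points that was smaller than the SD of either group (exact permutation test, two-sided, p = 0.5). Leaving out heat replicate 1, 2 or 3 made the difference -0.48, -2.94 or -17.3 points, leaving out control replicate 2 or 3 made it -12.3 or 0.02, and with only peaks that covered at least 50% of their region it was 2.26. At the 170 regions found without both replicate 3 libraries the median percentiles were 69.4 and 67.0 in heat replicates 1 and 2, against 79.4 and 62.6 in control replicates 1 and 2. Fragments at the summit had a median of 15, 15 and 42 in heat replicates 1, 2 and 3, against 15, 13 and 33 in control replicates 1, 2 and 3.

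**Figure D3:**
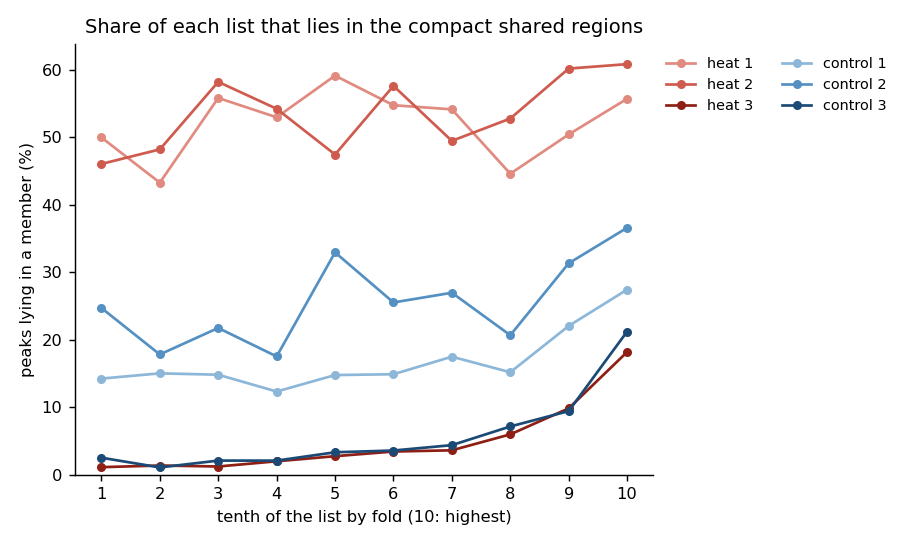
Share of peaks (%) lying in a compact shared site, by place in each library's list, cut by fold into 10 groups of about equal size (10 is the strongest), 1 line per library with heat in red shades and control in blue shades. In heat replicate 3 the share was 18.2% in the strongest and 1.13% in the weakest group of peaks, while in heat replicate 1 it was 55.7% and 50%.

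How strongly the sites were concentrated among the top peaks depended on the list. Peaks at the sites made up 52.0%, 53.4% and 4.95% of the lists of heat replicates 1, 2 and 3, against 16.9%, 25.7% and 5.69% of those of control replicates 1, 2 and 3. Where each list is divided by fold into 10 groups of about equal size, the strongest group of heat replicate 3 had 18.2% of its peaks at the sites and the weakest 1.13%. In control replicate 3 these shares were 21.2% and 2.53%. For heat replicate 1 they were 55.7% and 50%, for heat replicate 2 60.9% and 46.1%, for control replicate 1 27.5% and 14.3%, and for control replicate 2 36.6% and 24.7%. The slope was thus steep in the long lists and shallow in the short heat lists, but it was not taken at equal list length. The selection asks for a peak in several lists and can itself favour strong peaks, so no test was made of this slope. Among the sets of regions the median fold in heat replicate 3 was 5.19 at regions of both replicate 3 lists alone, 6.26 just outside the presence rule, 7.66 at the compact sites and 9.49 at the shared regions of 2500 bp or more. The same order held in control replicate 3, with 4.56, 5.49, 6.88 and 8.29. In the other libraries the steps from just outside the presence rule to the wide shared regions were smaller. The medians were 4.21, 4.30 and 4.72 in heat replicate 1 and 4.13, 4.43 and 4.63 in heat replicate 2. In control replicate 1 they were 5.26, 5.82 and 6.47, and in control replicate 2 5.10, 5.33 and 5.57. Each value takes the highest-fold peak of a region, and the sets differ in width. What width adds was not tested.

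A site ranked high in one list was often ranked lower in another, and the unlike lengths of the lists enter these ranks. Of the 826 sites, 667 lay at or above the 10th percentile in every library that had a peak, 454 at or above the 25th, 186 at or above the 50th, 42 at or above the 75th and 7 at or above the 90th. Between the highest and the lowest percentile of a site there was a median gap of 59.2 points (quartiles 41.9 and 75.4). The library in which a site ranked highest was control replicate 3 at 310 sites, heat replicate 3 at 293, control replicate 1 at 106, heat replicate 2 at 46, heat replicate 1 at 40 and control replicate 2 at 31. As a description over the 818 sites that both had, the percentiles of heat replicate 3 and control replicate 3 had a Spearman correlation of 0.326, and both libraries share the merged regions on which the points rest. Heat replicate 3 ranked a site higher at 398 of them and control replicate 3 at 420, with a median difference of -0.11 points (quartiles -12.6 and 11.2) and 366 sites (44.7%) within 10 points. For single sites the difference ran from -79.8 to 86.7 points.

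The sites that stood highest in all 6 libraries ranked high in both groups, but some libraries split some of them into separate peaks. On MRZV01000092.1 at 188060–189117 the percentiles were 98.5, 95.7 and 98.6 in heat replicates 1, 2 and 3, against 98.8, 94.3 and 97.0 in control replicates 1, 2 and 3. Its summits rested on 18, 15 and 62 fragments in the heat libraries and on 17, 15 and 44 in the controls. Heat and control overlapped here, and every library placed the site near the top of its list. The next, MRZV01000785.1 at 248248–248846, had percentiles of 96.7, 93.6 and 99.6 in heat, against 97.1, 96.4 and 96.9 in control, on 27, 23 and 83 fragments against 33, 23 and 70. MRZV01002209.1 at 58512–59774 had 98.7, 99.4 and 93.6 in heat, against 98.2, 95.7 and 99.8 in control. The groups overlapped at both of these sites too. MRZV01000083.1 at 95261–97594 was wider, at 2334 bp, and its peak in heat replicate 3 had the highest fold of any site in that library, 25.4. Its folds in the other libraries were 7.42 and 6.11 in heat replicates 1 and 2, against 13.7, 7.49 and 12.5 in control replicates 1, 2 and 3. Heat replicates 1 and 2 and control replicate 1 listed separate peaks across this site. The last, MRZV01000296.1 at 713807–714962, had percentiles of 87.2, 98.1 and 92.4 in heat, against 90.7, 90.7 and 86.2 in control. Heat replicates 1 and 2 listed separate peaks there too, and its summits spanned 718 bp.

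The sites of highest fold in the other libraries were less even. On MRZV01000163.1 at 231913–232130 the fold was 24.6 in heat replicate 1 and 7.26 in heat replicate 2 with no peak in heat replicate 3, against 15.2, 17.5 and 8.18 in control replicates 1, 2 and 3. In heat replicate 2 the top site was MRZV01000785.1 at 245721–248072, which lies just before the site on this scaffold described above, with folds of 5.89, 9.49 and 14.4 in heat, against 5.26, 4.38 and 20.1 in control. These 2 sites show how far a top place in one library was from a place in the next. MRZV01000677.1 at 250008–251542 led control replicate 1, with folds of 4.05 and 8.77 in heat replicates 1 and 3 and no peak in heat replicate 2, against 16.8, 10.7 and 13.98 in control. MRZV01001263.1 at 89156–91136 led control replicate 3, with 6.84, 3.84 and 21.5 in heat, against 9.41, 8.33 and 22.9 in control. The site that led control replicate 2, MRZV01000084.1 at 424095–424355, had no peak in heat replicate 3. Its folds were 10.0 and 7.06 in heat replicates 1 and 2, against 4.05, 18.3 and 10.0 in control replicates 1, 2 and 3.

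Few sites had all heat libraries on one side of all control libraries. At 70 of the 826 sites every heat percentile with a peak lay above every control one, and at 90 every one lay below (8.47% and 10.9%). Over the 950 shared regions of any width these shares were 8.11% and 10.3%, but 826 of those regions are the sites themselves, so nothing is read from the nearness. At the other 124, of 2500 bp or more, they were 5.65% and 6.45%. All 6 libraries had a peak at 62 of these 124 and at 112 of the 826 sites. A full separation is easier with fewer libraries, so these shares are not compared. Of the 112 sites with all 6 libraries none had heat above control throughout and 4 had heat below (3.57%). Among the 174 regions with all 6 libraries the shares were 1.72% above and 3.45% below, and 112 of these are again the sites. The other 62 held the 3 with heat above and 2 with heat below. The widest separation was on MRZV01000122.1 at 384582–385456, with percentiles of 10.3, 19.1 and 38.0 in heat, against 92.3, 95.9 and 98.5 in control. Its folds were 3.14, 3.49 and 4.36 in heat, against 7.998, 8.11 and 11.1 in control, on 16, 14 and 52 fragments against 17, 20 and 40. So fragments at the summit overlapped between the groups where the folds did not, and the local background was 4.42, 3.29 and 11 fragments per position in heat, against 1.25, 1.59 and 2.69 in control. On MRZV01000739.1 at 11334–11824 the percentiles were 81.7, 9.85 and 65.8 in heat, against 90.4, 99.7 and 99.7 in control. MRZV01000427.1 at 384339–386473 had 29.3, 34.0 and 90.5 in heat, against 97.9, 90.8 and 94.95 in control, and only its heat replicate 3 came close to the controls. On MRZV01001252.1 at 60634–62307 heat had 42.2, 73.9 and 84.4, against 91.7, 90.1 and 92.4 in control. These 4 were picked for their separation, so their values carry no test.

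Summits, the positions of highest pileup, were set by the highest-fold peak of each library at a site. The span from the first to the last summit ran from 5 to 1927 bp with a median of 305 bp (quartiles 127 and 556 bp), a median of 27.6% of the width of the region. At 75 sites all summits lay within 50 bp, at 280 (33.9%) within 200 bp and at 578 (70.0%) within 500 bp. A span grows with the number of summits and cannot pass the width of its region, and its median was 268 bp with 4 libraries, 302 bp with 5 and 476.5 bp with 6. By width it was 56 bp in the 81 sites under 500 bp, 223 bp from there to 1000 bp, 350 bp from there to 1500 bp, 534 bp from there to 2000 bp and 656 bp above that. The 502 sites with 1 peak in every library that had any showed a median span of 227 bp in regions of 905.5 bp. The 324 sites at which some library listed 2 or more peaks showed 540.5 bp in regions of 1610.5 bp. More than 1 peak was listed at 50, 38 and 65 sites in heat replicates 1, 2 and 3, against 165, 47 and 110 in control replicates 1, 2 and 3.

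**Figure D4:**
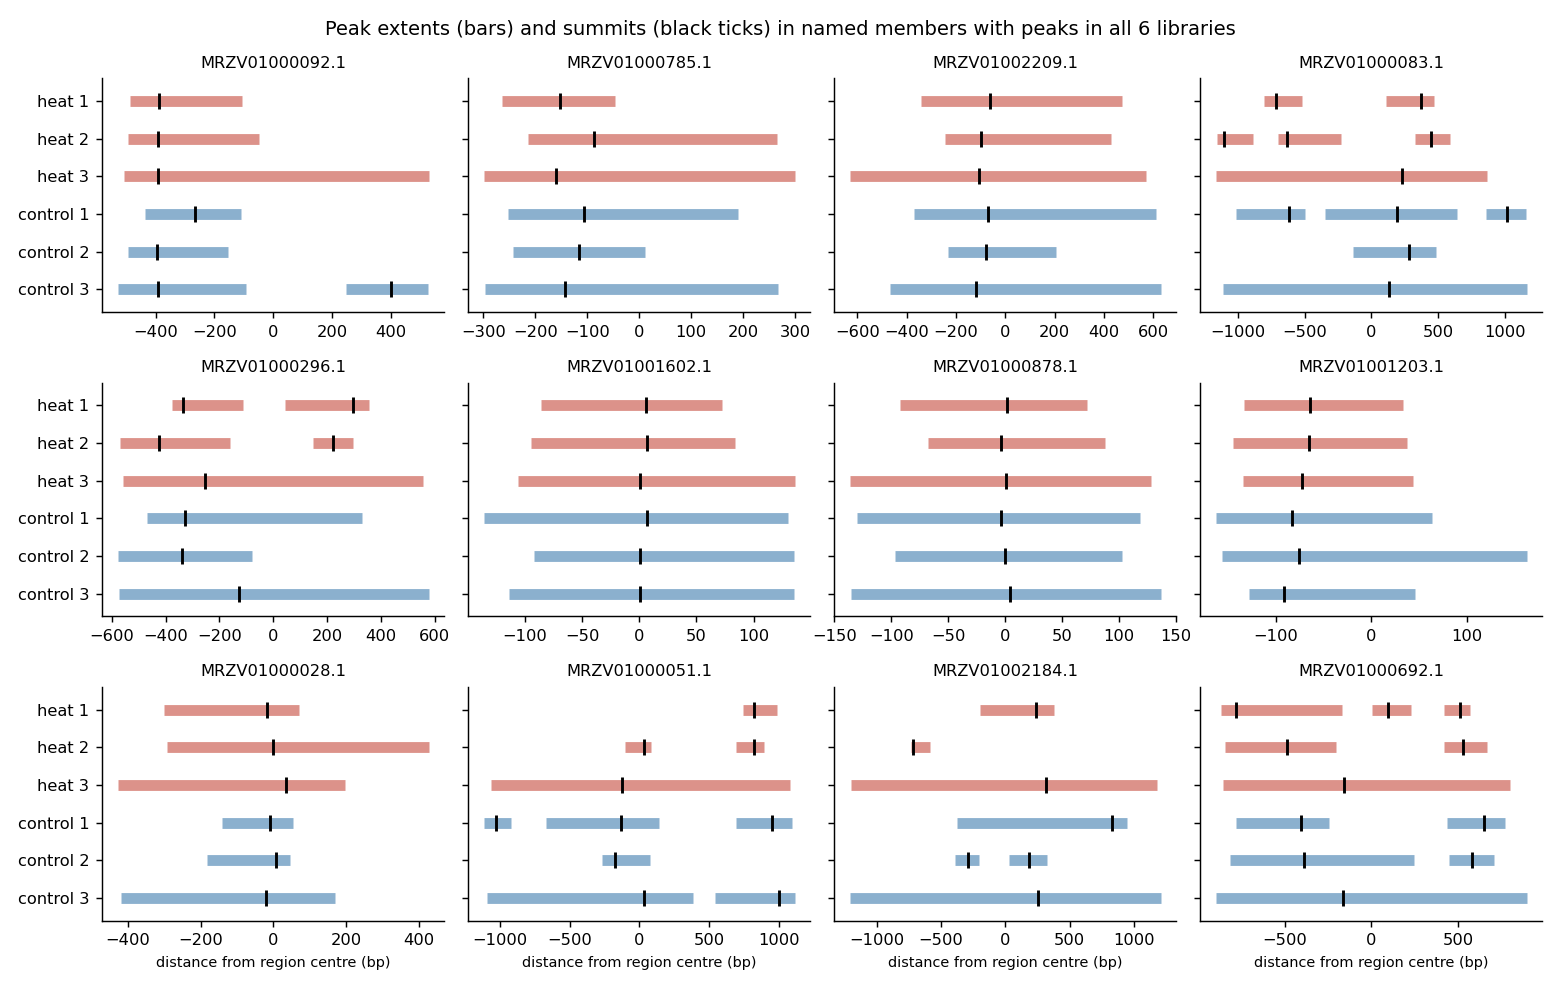
Peaks (bars) and summits (black ticks) of each library by distance from the centre of the region (bp), heat in red above control in blue, at the 12 sites with peaks in all 6 libraries named for their rank or their summit span. Summits line up within 6 bp on MRZV01001602.1 and within 8 bp on MRZV01000878.1, and spread over 1849 bp on MRZV01000051.1, where several libraries list more than 1 peak.

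The tightest site with all 6 libraries lay on MRZV01001602.1 at 186829–187101, 273 bp wide. Its summits were at 186971, 186972 and 186966 in heat replicates 1, 2 and 3, against 186972, 186966 and 186966 in control replicates 1, 2 and 3, a span of 6 bp. The percentiles there were 85.0, 99.7 and 99.8 in heat, against 99.5, 99.2 and 99.8 in control. It was thus both among the strongest and among the best placed sites, with the lowest rank in heat replicate 1. On MRZV01000878.1 at 231027–231300 the summits spanned 8 bp, at 231165, 231160 and 231164 in heat, against 231160, 231163 and 231168 in control. The fold there was 7.47, 6.06 and 12.8 in heat, against 8.36, 4.32 and 13.0 in control. MRZV01002209.1, named above for its rank, was a wider site of 1263 bp whose 6 summits fell within 54 bp, and MRZV01000028.1 at 1298850–1299706 was one of 857 bp with a span of 55 bp. A tight set of summits was therefore not limited to the narrow sites. The widest spans were 1849 bp on MRZV01000051.1 at 714707–716940, 1544 bp on MRZV01002184.1 at 15447–17864 and 1431 bp on MRZV01000692.1 at 17755–19550. On MRZV01000051.1 the summits lay at 716647, 716644 and 715696 in heat, against 714798, 715651 and 715856 in control. Both short heat lists thus placed it near the right end, control replicate 1 near the left end and the other 3 libraries between them.

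Summit distances in pairs that crossed the groups were close to those in pairs within a group. Over the 15 pairs of libraries the median distance between summits at sites that both had ran from 76 to 126 bp. It averaged 102 ± 17.9 bp over the 6 pairs within groups and 104 ± 13.5 bp over the 9 pairs between groups (SD over pairs, which share libraries), and the means differed by -1.53 bp (exact permutation test over the 3 and 3 libraries, two-sided, p = 0.7). This difference changed sign under several settings. Leaving out heat replicate 2 made it -5.75 bp, while leaving out heat replicate 3 made it 0.125 bp and leaving out control replicate 1, 2 or 3 made it 4.67, 7.33 or 6 bp. It was 5.25 bp at the 112 sites with all 6 libraries, -7.92 bp with peaks merged within 500 bp, and -3 bp without both replicate 3 libraries. The 3 tests between groups given here, of width, rank and summits, had a Benjamini-Hochberg adjusted p of 0.8 each. The closest pair of libraries was heat replicate 3 with control replicate 3, at 76 bp over 818 sites (quartiles 26 and 249 bp), although it crosses the groups. There 39.5% of sites had summits within 50 bp, 70.7% within 200 bp and 8.80% more than 500 bp apart, and 4 had the same base. The summit of heat replicate 3 was the one at the higher position at 414 sites and at the lower position at 400. Heat replicates 1 and 2 were 120.5 bp apart over 190 sites, and the farthest pair was heat replicate 1 with control replicate 1, at 126 bp over 525 sites.

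**Figure D5:**
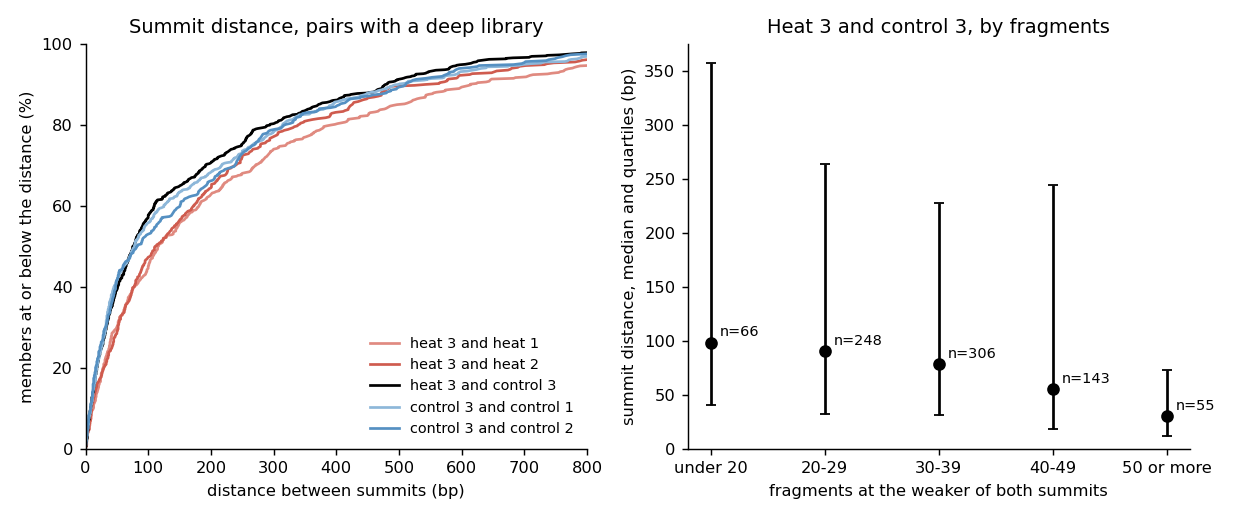
Left, cumulative share of sites (%) by distance between summits (bp, axis ends at 800) for 5 pairs with a replicate 3 library; right, median and quartiles of the distance between heat replicate 3 and control replicate 3 (bp) by fragments at the weaker of both summits, with the number of sites. The median was 98 bp in the 66 sites with under 20 fragments and 30 bp in the 55 sites with 50 or more.

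The distance between both deep libraries was smaller where more fragments stood under the summits. Its median was 98 bp where the weaker summit had under 20 fragments (66 sites), 90.5 bp with 20 to 29 (248 sites), 78.5 bp with 30 to 39 (306 sites), 55 bp with 40 to 49 (143 sites) and 30 bp with 50 or more (55 sites). By the median, sites with more fragments were not narrower, with widths of 836.5 bp in the first of these classes and 1356 bp in the last. But the last class also holds some of the 11 sites on very high local background described below. Those sites are all under 500 bp wide, and the distance was not taken without them. In every library the summit was usually well inside the region, and 63.8% to 67.8% of summits lay between 25% and 75% of the way along it. The summits of the other libraries fell inside a peak of heat replicate 3 at 96.2% to 98.4% of the sites that both had. Inside a peak of control replicate 3 they fell at 95.7% to 97.6%. The peaks of heat replicate 3 and control replicate 3 covered a median of 94.9% and 87.0% of the region, so most positions in it lie inside them. These shares are therefore no measure of how well summits agreed.

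Of the sites, 8 had no peak in one or both replicate 3 libraries: 6 lacked heat replicate 3, 5 lacked control replicate 3 and 3 lacked both. Among those without heat replicate 3, MRZV01000163.1 at 231913–232130 stood at percentile 97.3 even in its weakest heat library, and MRZV01002364.1 at 36867–37108 had percentiles of 85.0 and 94.9 in heat replicates 1 and 2, against 87.6 and 76.9 in control replicates 2 and 3. MRZV01000084.1 at 424095–424355 had 99.8 and 96.1 in heat replicates 1 and 2, against 20.4, 99.97 and 97.4 in control. These 3 are under 300 bp wide, and whether width bears on a missing peak was not tested. Their ranks show that a site placed high by most lists can be missing from a list of 17932 peaks. Without control replicate 3, MRZV01002387.1 at 56749–57876 had 47.4 and 86.7 in heat replicates 2 and 3, against 97.5 and 89.0 in control replicates 1 and 2, and MRZV01000337.1 at 426213–426975 had 27.0 and 69.2 in heat replicates 1 and 3, against 52.6 and 39.5. A peak missing from a list can have had signal below the threshold of that list, and no signal track was analysed here.

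The 3 sites that lacked both long lists were of another kind, with a very high local background. They lie on MRZV01000350.1 at 59761–60156, on MRZV01001394.1 at 17081–17383 and on MRZV01001680.1 at 176818–177182. At the first the background was 98.8 and 83.0 fragments per position in heat replicates 1 and 2, against 61.1 and 70.3 in control replicates 1 and 2. The folds there were 2.105 and 2.49 in heat, against 2.67 and 2.86 in control, so the site sat near the bottom of each list. In all, 11 sites (1.33%) had a peak on more than 10 times the genome background of its library, against 144 of all regions (0.587%). All 11 were under 500 bp wide, with a median width of 354 bp and a median summit span of 49 bp, against 1167 bp and 313 bp at the other sites. One of them had all 6 libraries, MRZV01001203.1 at 88103–88429, with folds of 1.78, 1.86 and 1.67 in heat, against 2.77, 2.41 and 1.73 in control, and summits within 28 bp. MRZV01000084.1 and MRZV01000927.1, named above, are also among the 11. Without them 815 sites remained, and none of the differences between groups changed sign. What raises the background at these places was not tested.

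The compact sites had neighbours about as near as other regions had. The nearest region of any kind lay a median of 721 bp away, edge to edge, against 822 bp over all regions and 450 bp at the shared regions of 2500 bp or more. Another region lay within 1 kb of 455 sites (55.1%), against 52.5% of all regions and 66.9% of the wide shared ones. Within 10 kb the shares were 78.8% of the sites, 78.8% of all regions and 92.7% of the wide shared ones. Regions on both sides within 1 kb were found at 82 sites (9.93%), against 9.45% of all regions and 20.2% of the wide ones. In these measures the sites stood near all regions, and the wide shared regions stood above both. The nearest neighbours within 1 kb were mostly weakly shared themselves: 58.7% of these neighbours had a peak in 1 library and 80.9% had peaks in replicate 3 lists only. Of all regions, whether or not they neighbour a site, 58.2% had a peak in 1 library and 74.6% had peaks in replicate 3 lists only. No test was made of these shares, since neighbouring regions are not independent.

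A small share of the sites had another site close by. Whether that share is above or below what their density alone would give was not tested. Another compact site lay within 1 kb of 18 sites, within 10 kb of 54 (6.54%, Wilson 95% interval 5.04–8.43%) and within 100 kb of 225, and a wide shared region lay within 10 kb of 10 (1.21%). Without both replicate 3 libraries, 10.6% of the 170 regions that all 4 of the others listed had another of them within 10 kb. On scaffolds with more than 1 site the median gap between neighbours was 96.6 kb (quartiles 33.6 and 235.9 kb). The closest pair was on MRZV01000917.1, where sites at 296492–297551 and 297671–299455 were 119 bp apart. Of this pair the left site had peaks in 4 libraries, with percentiles of 5.01 and 99.3 in heat replicates 2 and 3, against 91.4 and 76.6 in control replicates 1 and 3. The right site had all 6, at 72.5, 39.5 and 98.6 in heat, against 98.0, 82.9 and 71.2 in control. Heat replicate 3 thus ranked both of them high, and heat replicate 2 ranked both in the lower part of its list. The closeness of a pair depends on merging, since a gap of 119 bp would close if peaks within 500 bp were joined, and 3.85% of the sites then had another within 10 kb.

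Over the scaffolds the sites were spread thinly, with more of them on scaffolds of longer span up to the last peak. They were found on 569 of the 2176 scaffolds with any peak (26.1%): 384 scaffolds had 1 site, 130 had 2, 41 had 3, 11 had 4 and 3 had 5. When scaffolds were put in order of the span up to their last peak and divided into 4 equal groups, the sites numbered 36, 87, 188 and 515 from the shortest to the longest. Per Mb of span that was 1.74, 1.33, 1.29 and 1.36 sites, against 1.35 over all scaffolds. A site was found on 6.62%, 13.6%, 26.3% and 58.1% of the scaffolds in these groups. Scaffolds of longer span thus more often had one, while the density per Mb stayed level above the shortest group. As a share of all regions in these groups the sites rose, from 2.50% and 2.80% to 3.36% and 3.58%. The 3 scaffolds with 5 sites each were MRZV01000064.1 with 133 regions in all, MRZV01000076.1 with 32 and MRZV01000295.1 with 38. As a share of regions the sites were 3.76%, 15.6% and 13.2% there, against 3.37% in the series. These scaffolds were picked for their number of sites, so nothing is read from the higher shares. On each of the 3 scaffolds 1 of the 5 sites had all 6 libraries.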

How the data were processed

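H3K9ac ChIP-seq peak lists of 3 heat-stress and 3 control immunoprecipitates were used, and 6 inputs entered only through the calls, out of 12 samples grouped by their labels. MACS2 2.1.1.20160309, SAMtools 1.3.1 and BWA are named, per the submitters' processing notes, and a build was not given in the sources used here. In the deposited lists the fold is the authors' ratio of pileup to local background at the summit, with 1 added to both. The −log10 p and the −log10 q in these deposited lists are likewise the authors', each list ends near a q of 0.05, and the deposited score is the whole-number part of 10 times the −log10 q and was not used. Fold, −log10 p and −log10 q were used inside a list, to rank its peaks or apply a threshold. Each list has its own depth and cutoff.

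Whole fragments and background were solved per peak from fold and −log10 p under a Poisson model, within 0.002 in −log10 p, for 100% of peaks, and the solution was tested on simulated data. Where a library had several peaks in a region, the one of highest fold was used. Groups were compared over libraries by exact permutation tests, except the number of sites per library, for which a test had been planned, because presence chose the sites. The members and lists were chosen with earlier results of these data known. Regions named are the top 5 by lowest percentile among those with all 6 libraries, the 5 tightest and 3 loosest by summit span, the 3 narrowest and 3 widest and the 3 next past the width limit, up to 4 missing from each replicate 3 library, those with heat on one side of control throughout, the top site of each library, the closest pair and the scaffolds with most sites. The site on MRZV01001680.1 and the grouping by high local background were chosen after their values were seen. Alternatives tried were thresholds on −log10 q (5) and on fold (3), equal lists, merging within 500 bp, peaks covering 50% of a region, other width limits, all 3 libraries of each group, leaving out libraries and a replicate block. Python 3.11.15, NumPy 2.4.6, pandas 2.3.3, SciPy 1.17.1 and matplotlib 3.10.9 were used.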

Additional observations from a re-analysis of the deposited data

How the results depend on the processing

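Which regions met the rule depended on the calls. Their number was 197 with a −log10 q of at least 5, 166 with lists cut to the 929 peaks of highest −log10 q, 75 with peaks covering at least 50% of the region, 112 with all 3 libraries of each group, 170 without both libraries numbered 3, and 228 to 761 leaving out 1 library, where both remaining libraries of its group were needed. The median summit span was 196 bp, 265 bp and 73 bp under the first 3 of these settings, 241.5 bp with a width limit of 1500 bp, 476.5 bp with all 3 libraries and 277.5 to 344 bp leaving out 1 library. The share of sites with another within 10 kb was 2.03%, 1.205% and 0% under the first 3, 3.85% with merging within 500 bp, 4.51% with the 1500 bp limit, 1.79% with all 3 libraries, 10.6% without both libraries numbered 3 and 4.51% to 6.58% leaving out 1. Of the differences between heat and control, sites per library turned to 0.667 with equal lists. The fold percentile turned to 2.26 with peaks covering 50% and ran from -17.3 to 0.020 leaving out 1 library. Width then ran from -417 to 201 bp. The summit difference turned to 0.17 bp with a fold of at least 3, 0.47 bp with equal lists and 5.25 bp with all 3 libraries, and ran from -5.75 to 7.33 bp leaving out 1 library. The causes were not tested. With the replicate block the differences in fold percentile, width and summit distance were -6.89, -27.7 bp and -2.92 bp (two-sided exact permutation, p = 0.25, 0.75 and 0.75, smallest possible 0.25). The deviations of same-numbered libraries from their group means had correlations of -0.104, -0.000715 and 0.0688 over 112 sites. A correlation over sites leaves out the overall level of each library. It therefore cannot tell whether same-numbered libraries shared a batch or another trait, and both libraries numbered 3 had long lists. Over the alternatives p ran from 0.2 to 1, and none of them could reach 0.05. Leaving out both libraries numbered 3, or sites on high background, was chosen after seeing the data. Sites per library could not be compared with all 3 libraries or with any library left out, because the rule then fixes the count in 1 or both groups. The median listed peak in the 4 shorter lists rested on 12 to 15 fragments. How far such counts limit detection or the place of a summit in these lists was not tested.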
